A study of Mus musculus with 24 samples.

Results

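Expression of 10 genes of the liver X receptor (LXR) system and of cellular lipid efflux was followed through osteoclast formation. The genes were taken by symbol from a table of 54532 genes: the receptors Nr1h3 (LXRα), Nr1h2 (LXRβ) and their dimer partner Rxra, the transporters Abca1 and Abcg1, the secreted proteins Apoe, Apoc2, Pltp and Lpl, and the ubiquitin ligase Mylip. All 10 were in the table, and 9 of them passed the filter on low counts that left 15035 genes for testing. Apoc2 was the exception, with 21 counts summed over all libraries.

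The cells were mouse bone marrow macrophages, expanded on petri dishes and seeded at 15000 per well. Macrophage colony-stimulating factor (M-CSF) keeps such cells alive as macrophages, and receptor activator of NF-κB ligand (RANKL) turns them into multinucleated, bone-resorbing osteoclasts. Wells received M-CSF alone, at a dose the labels do not give, or 30 ng/mL M-CSF with 50 ng/mL RANKL, and RNA was taken at day 3 or day 5. All mice had a Runx1 transgene in Rosa26 (Rosa26-Runx1tg/+). Control cells had no Cre. The others, LysM-Cre;Rosa26-Runx1tg/+, also carried Cre under the lysozyme 2 promoter of myeloid cells and are labelled Runx1 gain of function. That label is written below as Runx1 overexpression. With 2 genotypes, 2 media and 2 days there were 8 groups of 3 libraries, numbered 1 to 3 in the labels, and ages of the mice are not given. No label says what a number stands for, so a p-value here reflects only how these samples scatter, which may be partly technical.

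LXRs are nuclear receptors that bind DNA together with RXR and are switched on by oxysterols, oxidised forms of cholesterol that build up when a cell holds too much of it. In macrophages the activated pair raises Abca1 and Abcg1, which hand cholesterol to lipid-poor apolipoprotein A-I and to high-density lipoprotein, and Apoe, which carries it away on secreted particles. Mylip, also called IDOL, marks the LDL receptor for degradation and so limits uptake. Pltp moves phospholipid between lipoproteins, Lpl splits triglyceride in them, and Apoc2 is the cofactor that Lpl needs. Osteoclasts are known to depend on cholesterol for fusion and survival, and LXR agonists are known to restrain their formation.

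Promoter sequence is shown for Abca1, because its window held a match to DR4, the DNA element that LXR binds with RXR, and for Apoe and Nr1h3, the members that moved most with RANKL in either direction. The windows are the 250 bases before the RefSeq start site on GRCm38.p6, each written 5′ to 3′ on the gene's own strand. In the table used, 8 of the 10 genes had one (Abcg1 and Lpl did not). The Nr1h3 window lies inside the deposited gene (chr2:91184061-91202834), before an internal start site, and the Rxra window also lies inside its gene. Those of Abca1 and Apoe adjoin the deposited end of the gene. Capitals mark matches to the LXR element DR4, for which the pattern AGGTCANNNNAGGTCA was searched on both strands with up to 3 mismatches in its 12 fixed letters.
Abca1, chr4:53159896-53160145, minus strand: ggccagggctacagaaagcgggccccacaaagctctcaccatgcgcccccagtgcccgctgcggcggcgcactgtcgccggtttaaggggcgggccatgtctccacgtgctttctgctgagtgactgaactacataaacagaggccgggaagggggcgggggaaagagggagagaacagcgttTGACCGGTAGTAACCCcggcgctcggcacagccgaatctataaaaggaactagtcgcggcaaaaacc
Apoe, chr7:19699189-19699438, minus strand: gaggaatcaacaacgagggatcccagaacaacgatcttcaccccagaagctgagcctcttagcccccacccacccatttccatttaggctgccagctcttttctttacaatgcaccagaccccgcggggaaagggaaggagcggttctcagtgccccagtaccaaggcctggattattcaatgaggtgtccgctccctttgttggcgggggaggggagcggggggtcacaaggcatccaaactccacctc
Nr1h3, chr2:91195117-91195366, minus strand: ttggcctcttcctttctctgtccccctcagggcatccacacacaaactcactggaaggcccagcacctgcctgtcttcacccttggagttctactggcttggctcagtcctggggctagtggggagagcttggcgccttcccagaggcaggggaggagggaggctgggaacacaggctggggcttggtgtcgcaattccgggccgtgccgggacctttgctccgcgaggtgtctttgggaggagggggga

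The Abca1 window held the only DR4 match among the 8 windows, 67 to 52 bases before the start site with 3 mismatches. Read on the opposite strand the match is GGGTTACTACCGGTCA, and 18.5% of the 32851 RefSeq windows of this length held a match by the same rule. The RUNX core TGTGGT, searched on both strands without a mismatch, was in 0 of the 8 windows and in 14.1% of all windows. TATAAA, searched on the gene's strand, stood 29 to 24 bases before the start of Abca1 and 32 to 27 bases before that of Mylip, against 7.59% of all windows. On both strands, the PU.1 core GAGGAA was found in Apoe and Pltp (23.3% of all windows), the NFAT core TGGAAA in Apoe and Apoc2 (18.6%), and the nuclear receptor core AGGTCA, which is part of DR4, in Apoc2 (14.0%). These matches describe letters in a short window and say nothing of binding.

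The deposited table places Nr1h3 at chr2:91184061-91202834, Nr1h2 at chr7:44549616-44553951, Rxra at chr2:27676440-27762957, Abca1 at chr4:53030787-53159895 and Abcg1 at chr17:31057698-31115777. Apoe lies at chr7:19696109-19699188 and Apoc2 nearby on the same chromosome and strand at chr7:19671579-19677941, while Mylip is at chr13:45389742-45412022, Lpl at chr8:68880491-68907448 and Pltp at chr2:164839518-164857711. The positions are those of GRCm38. Rxra, Abcg1, Mylip and Lpl are on the plus strand and the rest on the minus strand, and all are protein-coding. Pltp shares 495 of its 2562 exon bases (19.3%) with Ctsa on the other strand, and the strand setting of the counting is not given. Ctsa, a lysosomal protease, had 851 ± 92.5 CPM (SD, n = 3) in day 3 control cells kept in M-CSF and 1030 ± 174 with RANKL, a difference of 0.28 (log2; adjusted p = 0.0615). In LysM-Cre cells at day 3 Ctsa was called higher with RANKL (0.37, adjusted p = 0.0135). At day 5 it was not called in control cells (0.25, adjusted p = 0.108) or LysM-Cre cells (0.27, adjusted p = 0.0761). Pltp moved the other way, and the part of the shared bases in its change was not tested.

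Library totals ran from 18975750 to 24268936 counts except for 1 of 36523995, and a read was worth 0.0286 to 0.0541 CPM (counts scaled to a library of 1e6). Of the marker lists, the summed level of 8 osteoclast markers was 39.6 to 68.0 CPM in M-CSF libraries and 35626 to 58614 CPM with RANKL, and that of 8 macrophage markers 7343 to 10455 and 2966 to 4581 CPM. In libraries of whole wells, fewer cells of a type and less RNA per cell cannot be told apart. Runx1 itself was not called higher in any of the 4 genotype comparisons (79.3 ± 12.8 CPM in control and 86.0 ± 11.7 CPM in the other genotype at day 3 in M-CSF, adjusted p = 1), so the second genotype is named here by its label. Of the 6 sets of 4 libraries that share a genotype and a number, 1 (number 3 of the label Runx1 overexpression) had Y-linked reads, 2576 counts in all, and nearly no Xist. The other 5 had 0 to 2 Y-linked counts each. Calls of the members between the genotypes are therefore given with and without that set.

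RANKL split the genes into those that rose and those that fell, and every called change had the same direction in both genotypes and on both days. Nr1h3, Abcg1 and Lpl rose, while Rxra, Abca1, Apoe, Mylip and Pltp fell. Nr1h2 also fell, apart from cells labelled Runx1 overexpression at day 3. In control cells 3 members rose and 6 fell at day 3, where 59.1% of all genes tested were called (29.5% higher and 29.7% lower). The count was again 3 and 6 at day 5, with 49.4% of all genes called (26.4% higher and 23.1% lower). With Runx1 overexpression as the label, 3 rose and 5 fell at day 3 (59.2% of all genes called, 29.1% higher and 30.1% lower) and 3 rose and 6 fell at day 5 (52.4%, made up of 27.5% higher and 24.9% lower). The median log2 change of the 9 was -0.87, -1.30, -0.78 and -1.57 in that order, against medians between -0.03 and 0.03 over all genes. The libraries of the 2 media did not overlap for 6 of the 9 genes at day 3 and for 9 of 9 at day 5, in both genotypes. Of all genes tested, 61.1% at day 3 and 65.1% at day 5 did not overlap in control cells, and 58.2% and 63.8% in the others, so the day 3 count is near that of all genes. Mitochondrial genes took 1.52% to 2.42% of counts in M-CSF libraries and 3.15% to 4.57% with RANKL, and their part in these changes was not tested. Calls are at an adjusted p under 0.05 in edgeR's quasi-likelihood test.

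**Figure D1:**
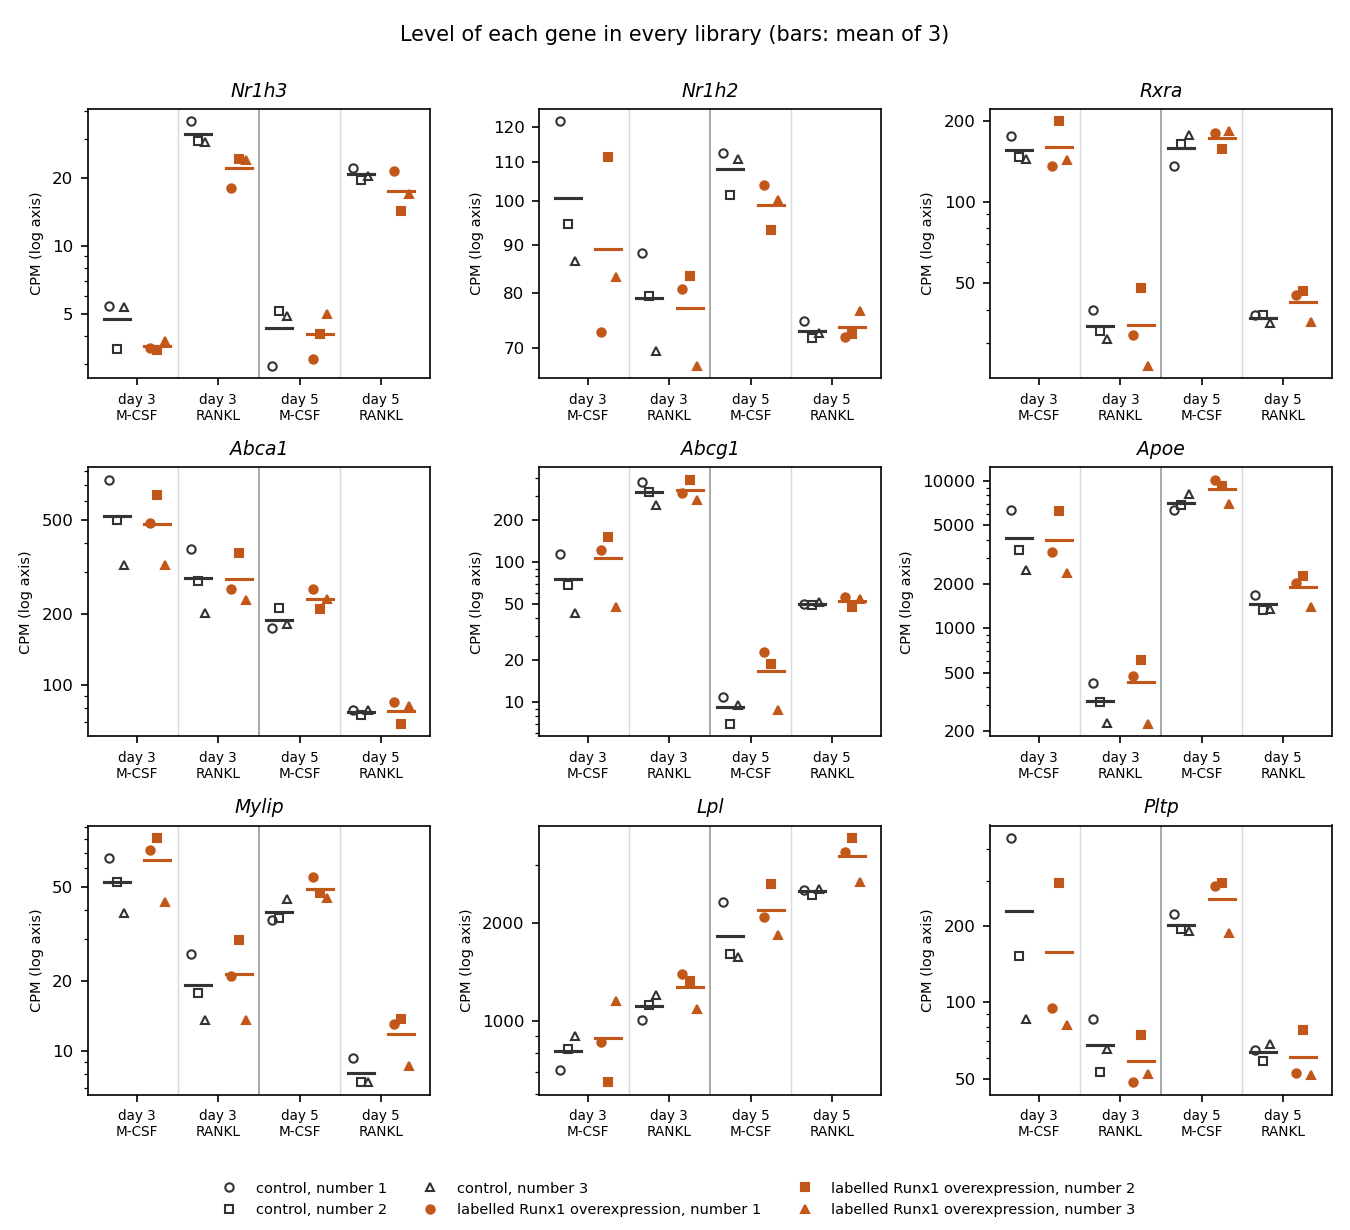
CPM of the 9 tested genes (log axis) in each of the 24 libraries, by day and medium, with control in open grey and the label Runx1 overexpression in filled orange, a symbol for each library number and a bar for the mean of 3. Nr1h3, Abcg1 and Lpl sit higher with RANKL on both days, and the libraries of M-CSF at day 3 spread most for Pltp (81.3 to 445 CPM).

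**Figure D2:**
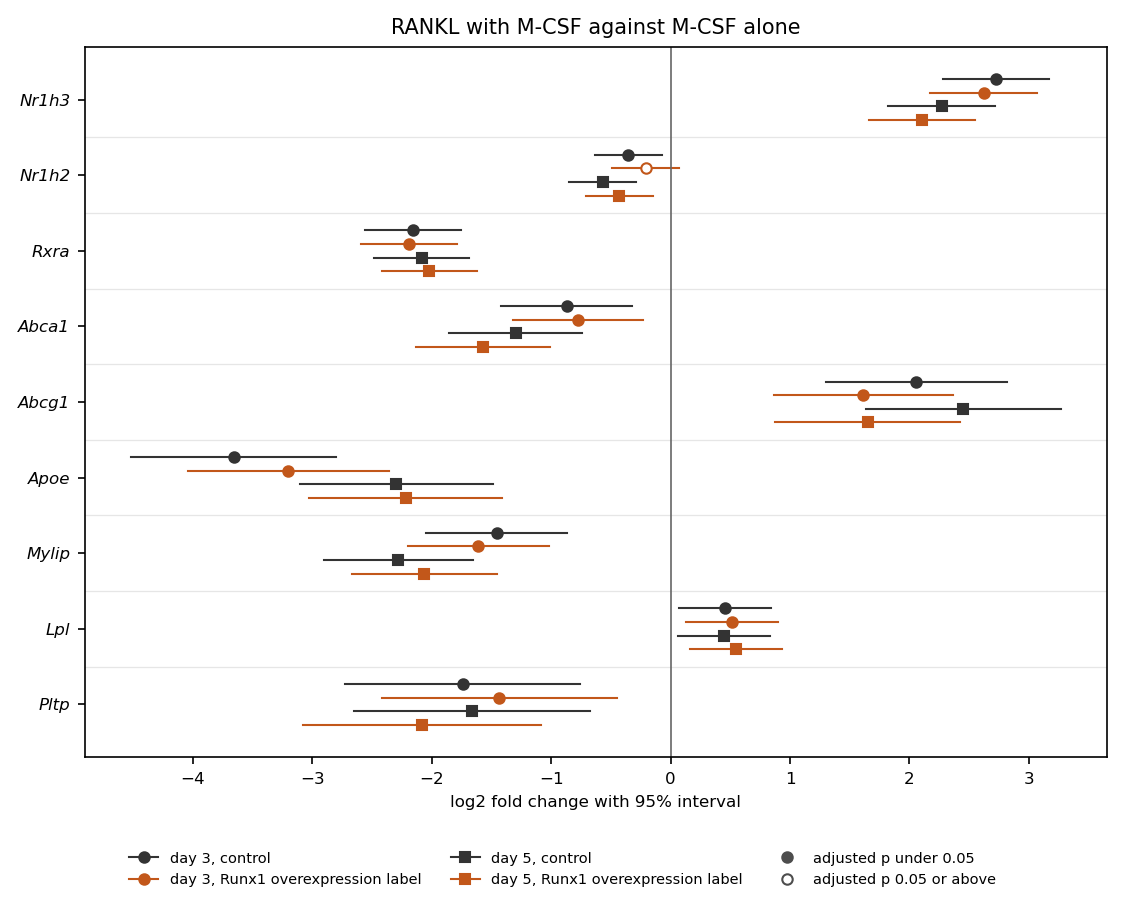
log2 fold change of RANKL with M-CSF against M-CSF alone, with its 95% interval, for 9 genes in 4 comparisons (circles day 3, squares day 5). Apoe shows the largest fall among them (-3.66 in control cells at day 3) and Nr1h3 the largest rise (2.72), and only Nr1h2 at day 3 in cells labelled Runx1 overexpression has an open symbol.

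Among the receptors, LXRα was the member induced by RANKL. In control cells at day 3, Nr1h3 stood at 5.40, 3.49 and 5.36 CPM in libraries 1, 2 and 3 in M-CSF and at 35.8, 29.5 and 29.0 CPM with RANKL. At day 5 the values were 2.94, 5.14 and 4.89 CPM against 22.2, 19.7 and 20.6 CPM. Every RANKL library lay above every M-CSF library, and the fitted rise was 6.60-fold at day 3 (log2 2.72, SE 0.21, adjusted p = 6.51e-10) and 4.82-fold at day 5 (log2 2.27, SE 0.21, adjusted p = 1.68e-08). Cells labelled Runx1 overexpression had 3.54, 3.46 and 3.80 CPM in M-CSF and 18.2, 24.3 and 24.02 CPM with RANKL at day 3. Their day 5 values were 3.14, 4.09 and 5.01 CPM against 21.5, 14.3 and 17.1 CPM. The rise was 6.15-fold at day 3 and 4.31-fold at day 5, again with no overlap.

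Nr1h2, the LXR made in most cell types, moved little by comparison. It ranged from 67.0 to 122 CPM over all 24 libraries, and its highest group mean was 1.48 times its lowest. In control cells at day 3 it was 122, 94.7 and 86.5 CPM in M-CSF and 88.1, 79.4 and 69.5 CPM with RANKL, groups that overlap (log2 -0.35, SE 0.14, adjusted p = 0.0298). That call was not made without M-CSF library 1 (log2 -0.21, adjusted p = 0.207), RANKL library 2 (adjusted p = 0.0559) or RANKL library 3 (adjusted p = 0.125). Nor was it made by DESeq2's test (adjusted p = 0.0644), with DESeq2's size factors (0.0643) or in a fit of only the groups compared (0.0897). At day 5 the M-CSF libraries held 113, 102 and 111 CPM and the RANKL libraries 74.8, 71.7 and 72.6 CPM, with no overlap (log2 -0.57, SE 0.14, adjusted p = 0.00144). In cells labelled Runx1 overexpression the change was -0.21 at day 3 (adjusted p = 0.19) and -0.43 at day 5 (adjusted p = 0.0112). Without M-CSF library 1 the day 3 value was -0.34 (adjusted p = 0.043).

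Per kb of exon, which allows genes to be compared, Nr1h3 was 0.0637 ± 0.0171 times Nr1h2 (SD, n = 3) in day 3 control cells kept in M-CSF and 0.531 ± 0.0327 times with RANKL. At day 5 the ratios were 0.0537 ± 0.017 and 0.380 ± 0.0141. LXRβ thus had more transcript per length than LXRα in all 24 libraries, by a margin that was smaller in every RANKL library than in any M-CSF library. Over the M-CSF libraries the ratio lay between 0.0348 and 0.0826, and over the RANKL libraries between 0.263 and 0.557.

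Rxra, the partner shared by the LXRs and other nuclear receptors, fell while Nr1h3 rose. Control cells had 175, 146 and 144 CPM in M-CSF and 39.7, 33.3 and 31.1 CPM with RANKL at day 3. At day 5 they had 135, 164 and 177 CPM against 38.1, 38.3 and 35.8 CPM. Every RANKL library was lower than every M-CSF library, and the fitted fall was 4.47-fold at day 3 (log2 -2.16, SE 0.19, adjusted p = 5.44e-09) and 4.24-fold at day 5 (log2 -2.08, SE 0.19, adjusted p = 1.34e-08). Cells labelled Runx1 overexpression held 136, 199 and 144 CPM in M-CSF and 32.1, 48.1 and 24.8 CPM with RANKL at day 3, and the falls were 4.57-fold and 4.06-fold at days 3 and 5. Over the 8 group means, Nr1h3 and Rxra had a Pearson r of -0.99 on log2 CPM, a description of means that share medium, day and genotype.

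The cholesterol transporters parted company. Abca1, which loads apolipoprotein A-I, held 739.7, 499 and 323 CPM in day 3 control cells kept in M-CSF and 377, 275 and 203 CPM with RANKL. The groups overlapped, since M-CSF library 3 was below RANKL library 1, and the change was -0.87 (log2, SE 0.26, adjusted p = 0.00739). It was not called without M-CSF library 1 (-0.54, adjusted p = 0.0869) or RANKL library 3 (-0.69, adjusted p = 0.0505), or in a fit of only the groups compared (adjusted p = 0.0532). By day 5 the spread had narrowed: 175, 212 and 181 CPM in M-CSF against 78.3, 74.9 and 78.3 CPM with RANKL, with no overlap and a 2.45-fold fall (log2 -1.30, SE 0.27, adjusted p = 0.000401).

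The same order held in cells labelled Runx1 overexpression. Their Abca1 was 484, 638 and 323 CPM in M-CSF and 254, 361 and 229 CPM with RANKL at day 3, overlapping groups that differed by -0.78 (adjusted p = 0.0152). That call was lost without M-CSF library 2 (-0.52, adjusted p = 0.117), RANKL library 1 (-0.72, adjusted p = 0.0587) or RANKL library 3 (-0.66, adjusted p = 0.0748). At day 5 it was 255, 209.8 and 233 CPM against 84.7, 68.6 and 81.5 CPM, a 2.97-fold fall without overlap (log2 -1.57, SE 0.27, adjusted p = 5.27e-05).

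Abcg1, which exports cholesterol to high-density lipoprotein, went up instead. Control cells at day 3 had 115, 69.1 and 43.6 CPM in M-CSF and 374, 317 and 256 CPM with RANKL, and at day 5 they had 11.0, 6.98 and 9.63 CPM against 50.0, 49.2 and 52.0 CPM. The lowest RANKL library exceeded the highest M-CSF library of its day, and the fitted rise between the groups was 4.16-fold at day 3 (log2 2.06, SE 0.36, adjusted p = 6.07e-05) and 5.47-fold at day 5 (log2 2.45, SE 0.39, adjusted p = 2.38e-05). In cells labelled Runx1 overexpression the libraries held 122, 152 and 48.1 CPM against 314, 391 and 281 CPM at day 3, and 22.7, 18.9 and 8.83 CPM against 56.1, 48.2 and 54.3 CPM at day 5. Those rises were 3.06-fold (adjusted p = 0.000619) and 3.14-fold (adjusted p = 0.000871). Abcg1 had the widest range of the tested members, with a highest group mean 35.7 times the lowest.

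Taken per kb of exon, Abca1 exceeded Abcg1 in every M-CSF library and Abcg1 exceeded Abca1 in every RANKL library. The ratio of Abcg1 to Abca1 in control cells was 0.364 ± 0.0281 (SD, n = 3) in M-CSF and 2.90 ± 0.345 with RANKL at day 3, and 0.126 ± 0.0388 and 1.67 ± 0.0331 at day 5. The cells labelled Runx1 overexpression had 0.542 ± 0.142 and 3.01 ± 0.214 at day 3, and 0.185 ± 0.076 and 1.73 ± 0.0563 at day 5. The switch therefore appeared in both genotypes, and the ratio was lower at day 5 than at day 3 within each medium.

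**Figure D3:**
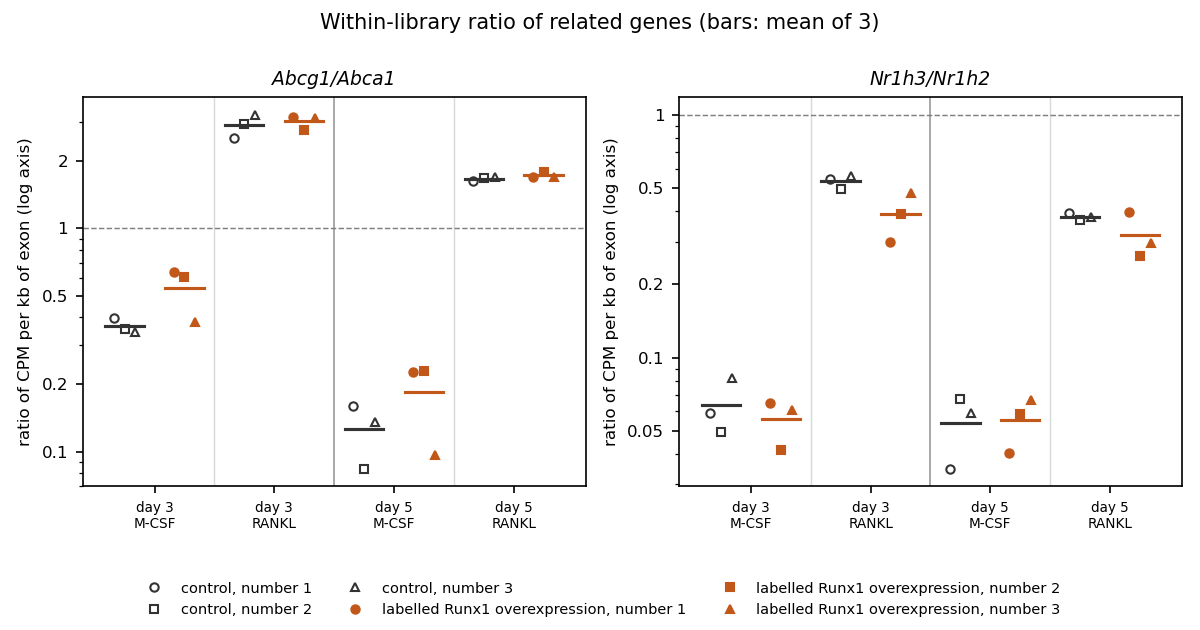
Ratio of Abcg1 to Abca1 (left) and of Nr1h3 to Nr1h2 (right) in each library, from CPM per kb of exon on a log axis, with symbols and bars as in the plot of levels and a dashed line at 1. The Abcg1 to Abca1 ratio lies between 0.0840 and 0.640 in M-CSF libraries and between 1.63 and 3.22 with RANKL, and Nr1h3 stays below Nr1h2 throughout.

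Of the secreted proteins, Apoe had the most RNA per kb of exon in all 8 group means and the largest fall with RANKL. In M-CSF its group means ranked between 4 and 13 among all genes by CPM, and in single libraries it took up to 1.00% of all counts. Control cells at day 3 had 6315, 3397 and 2497 CPM in M-CSF and 422, 317 and 228 CPM with RANKL. No library of one medium reached those of the other, and the fall was 12.6-fold (log2 -3.66, SE 0.41, adjusted p = 1.82e-07). At day 5 the values were 6367, 6890.0 and 8112 CPM against 1669, 1326 and 1355 CPM, a 4.91-fold fall (log2 -2.30, SE 0.39, adjusted p = 4.78e-05).

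Cells labelled Runx1 overexpression showed the same pattern of Apoe, with 3296, 6285 and 2376 CPM against 473, 604 and 223 CPM at day 3 and 10226, 9285 and 6922 CPM against 2021, 2266 and 1395 CPM at day 5. The falls were 9.19-fold (adjusted p = 8.41e-07) and 4.65-fold (adjusted p = 6.63e-05). The smaller fold at day 5 was tested as a difference of the RANKL response between days: it was 1.36 (log2, SE 0.52, adjusted p = 0.0951) in control cells and 0.98 (adjusted p = 0.229) in the others, and neither was called. Across the 9 genes, 0 responses to RANKL were called as differing between the days in either genotype, where 14.0% of all genes were called in control cells and 15.2% in those labelled Runx1 overexpression.

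Lpl was the member that RANKL raised least. Control cells had 711, 822 and 900.2 CPM in M-CSF and 1007, 1125 and 1200.1 CPM with RANKL at day 3, without overlap, and 2307, 1601 and 1574 CPM against 2521, 2438 and 2529 CPM at day 5, again without overlap. The rises were 1.37-fold on both days (log2 0.45, SE 0.18, adjusted p = 0.0399 at day 3 and 0.0486 at day 5). With the library number as a block, which the pairing check allows at day 3, the day 3 rise was 0.45 with an adjusted p of 0.0612 and was not called. In cells labelled Runx1 overexpression Lpl held 866, 652 and 1154 CPM against 1395, 1330.4 and 1094 CPM at day 3, where libraries overlap, and 2084, 2632 and 1834 CPM against 3281, 3637 and 2673 CPM at day 5. The changes were 0.52 (adjusted p = 0.0208) and 0.55 (adjusted p = 0.0164).

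Each of these 4 calls of Lpl was lost when certain single libraries were left out. At day 3 in control cells the adjusted p was 0.148 without M-CSF library 1, 0.0756 without M-CSF library 2, and 0.0893 and 0.122 without RANKL libraries 2 and 3. At day 5 in control cells it was 0.216 and 0.232 without M-CSF libraries 2 and 3, and between 0.0788 and 0.0984 without any of the RANKL libraries. In cells labelled Runx1 overexpression at day 3 it was 0.0583 and 0.133 without M-CSF libraries 1 and 2, and 0.0809 and 0.0546 without RANKL libraries 1 and 2. At day 5 it was 0.0647 and 0.101 without M-CSF libraries 1 and 3, and 0.0778 without RANKL library 2. With no low-count filter the adjusted p was 0.0821 and 0.0739 in control cells at days 3 and 5 and 0.0546 at day 3 in the others. In a fit of only the groups compared it was 0.0651 at day 5 in control cells and 0.0709 at day 3 in the others, and with DESeq2's size factors it was 0.0511 at day 5 in control cells. The direction stayed upward in each case.

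Pltp fell, with a wide spread in macrophages at day 3. Control cells had 445, 153 and 86.0 CPM in M-CSF and 86.0, 52.9 and 65.2 CPM with RANKL at day 3. The lowest M-CSF value lay at the highest RANKL value, and the fall of 1.74 (log2, SE 0.47, adjusted p = 0.00349) rested on library 1, without which it was -0.82 (adjusted p = 0.105). At day 5 the libraries were tighter, with 223, 194 and 190.2 CPM against 64.6, 58.8 and 68.3 CPM, and the fall was 3.17-fold without overlap (adjusted p = 0.00609). Cells labelled Runx1 overexpression had 94.7, 296 and 81.3 CPM against 48.3, 74.5 and 52.3 CPM at day 3 (log2 -1.43, adjusted p = 0.0128), and the call was lost without M-CSF library 2 (-0.60, adjusted p = 0.26) or RANKL library 1 (-1.33, adjusted p = 0.0541). Their day 5 values were 287, 295 and 187 CPM against 52.4, 77.6 and 51.8 CPM, a 4.24-fold fall (adjusted p = 0.00106).

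Apoc2 RNA was near nothing in all groups. Its 21 counts came from 8 of the 24 libraries, and the highest value was 0.271 CPM, from 5 counts. A count of 0 allows up to 3 counts, or 0.0857 to 0.162 CPM depending on the library, for counting error only. Of its 813 exon bases 79.5% are shared with Gm44805, which had 0 counts, so reads in the shared part may not have been assigned to either gene, and their part in the low level was not tested.

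Mylip, the LDL receptor ligase, fell with RANKL on both days. Control cells had 66.3, 52.6 and 38.6 CPM against 26.01, 17.6 and 13.6 CPM at day 3, and 36.2, 37.0 and 44.5 CPM against 9.41, 7.43 and 7.39 CPM at day 5. No libraries overlapped, and the falls were 2.75-fold (log2 -1.46, SE 0.28, adjusted p = 0.000167) and 4.85-fold (log2 -2.28, SE 0.30, adjusted p = 2.07e-06). Libraries labelled Runx1 overexpression held 71.8, 81.0 and 43.2 CPM against 20.9, 29.7 and 13.7 CPM at day 3, and 55.1, 47.0 and 44.9 CPM against 13.1, 13.7 and 8.65 CPM at day 5. They fell 3.06-fold and 4.17-fold.

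Between day 3 and day 5 the transporters dropped whichever medium the cells were in, and Lpl rose. In M-CSF, Abcg1 fell 8.23-fold in control cells (log2 -3.04, SE 0.39, adjusted p = 1.83e-05) and Abca1 2.75-fold (log2 -1.46, SE 0.27, adjusted p = 0.000668), while Lpl rose 2.25-fold (adjusted p = 0.000157). These were the 3 members called of 9, where 23.7% of all genes were called (12.2% higher and 11.5% lower). With RANKL, control cells had 6 members called, against 26.8% of all genes (14.1% higher and 12.7% lower). Abcg1 fell 6.26-fold, Abca1 3.69-fold, Mylip 2.36-fold (adjusted p = 0.00436) and Nr1h3 1.51-fold (adjusted p = 0.0289), and Apoe rose 4.50-fold (adjusted p = 0.000442) and Lpl 2.25-fold. The Nr1h3 fall was not called when library 1 of day 3 or any library of day 5 was left out (adjusted p from 0.0592 to 0.112).

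Cells labelled Runx1 overexpression had 4 members called between days in M-CSF (14.3% of all genes, 7.17% higher and 7.09% lower) and 5 with RANKL (33.2%, 17.6% higher and 15.6% lower). In M-CSF Abcg1 fell 6.37-fold and Abca1 2.07-fold, and Lpl rose 2.45-fold. The Abca1 fall was not called without day 3 library 2 (-0.80, adjusted p = 0.0798) or day 5 library 2 (-0.97, adjusted p = 0.0614). Apoe rose 2.21-fold there (log2 1.14, adjusted p = 0.0459) and kept that call only when day 3 library 2 was the one left out. Without any of the other 5 libraries its adjusted p was 0.055 to 0.151. It was 0.0509 with DESeq2's size factors, 0.142 with no low-count filter and 0.0959 in a fit of only the groups compared. Without the set of libraries with Y-linked reads it was 0.078 (log2 1.01). With RANKL Abcg1 fell 6.21-fold, Abca1 3.60-fold and Mylip 1.82-fold, and Apoe rose 4.37-fold and Lpl 2.51-fold. Mylip there overlapped between days, and its call was lost without day 3 library 1 or 2 or day 5 library 3 (adjusted p 0.0591, 0.174 and 0.12), with no low-count filter (0.095) or in a fit of only the groups compared (0.0521). In both genotypes Rxra, Nr1h2 and Pltp were not called between days in either medium. With library 2 of day 3 left out of the cells labelled Runx1 overexpression, Rxra with RANKL went from 0.29 to 0.57 (adjusted p = 0.0195) and Pltp in M-CSF from 0.70 to 1.54 (adjusted p = 0.0426), and both were called. Within control cells in M-CSF the change of Apoe was 0.81 (adjusted p = 0.121), and without day 3 library 1 it was 1.28 (adjusted p = 0.0449).

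Stromal and adipocyte markers were also higher at day 5. Their sum was 11.0 to 34.2 CPM over the day 3 libraries and 34.4 to 314 CPM over those of day 5, with Adipoq and Plin1, which mark adipocytes, at or near 0 in every day 5 group. Of the 6 tested, 3 and 4 rose in M-CSF in control cells and in those labelled Runx1 overexpression, where 12.2% and 7.17% of all genes rose. With RANKL 0 and 6 rose, where 14.1% and 17.6% of all genes did. The medians of the log2 change were 1.55 and 3.01 in M-CSF and 1.57 and 3.73 with RANKL. In M-CSF at day 5 Lpl was highest in control library 1 and in library 2 of the other genotype, where the sums were 167 and 179 CPM, the highest of their groups. With RANKL at day 5 the sum was highest in control library 2 (90.0 CPM), where Lpl was the lowest of its group at 2438 CPM. In the other genotype the sum with RANKL was highest in library 1 (314 CPM), while Lpl was highest in library 2 (3637 CPM). In library 3 of each day 5 group the sum was 34.4 to 47.4 CPM, and Lpl there, at 1574 and 2529 CPM in control and 1834 and 2673 CPM in the others, was above every day 3 library of the same medium and genotype. The part of stromal cells in the level of Lpl was not tested.

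At day 3 the libraries of a group differed from each other across several members at a time. Library 1 of control was the highest of its 3 for 8 of the 9 genes in M-CSF and for the same number with RANKL, and was the lowest for Lpl both times. Library 2 led in cells labelled Runx1 overexpression, for 7 of 9 genes in M-CSF and 8 of 9 with RANKL. Library 3 was the lowest for 7 genes in both media of control, and for 5 and 7 in the other genotype. Summed macrophage markers moved the same way, at 9397, 8106 and 7438 CPM in libraries 1 to 3 of control in M-CSF and 4196, 3681 and 2966 CPM with RANKL. In the other genotype they were 7343, 8867 and 7346 CPM, and 3993, 4581 and 3050 CPM. The osteoclast sum with RANKL was 49686, 49621 and 36060 CPM in control and 58614, 52856 and 40223 CPM in the others. The part of these differences in the spread of the 9 genes was not tested.

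None of the 9 genes was called between genotypes on either day or in either medium. In the 4 comparisons of the label Runx1 overexpression with control 0% of all genes were called, while 3.53%, 1.72%, 6.30% and 3.04% of genes had an unadjusted p under 0.05 at day 3 in M-CSF, day 3 with RANKL, day 5 in M-CSF and day 5 with RANKL. DESeq2 called 3, 1, 18 and 5 genes in the same order, 0 of them members. Without the set of libraries with Y-linked reads, edgeR called 35, 6, 110 and 39 genes, again with 0 members. The response to RANKL was not called as differing between genotypes for any member either, with 0% of all genes called at both days, 242 and 482 genes (1.61% and 3.21%) at an unadjusted p under 0.05, and 0 genes called by DESeq2 on either day. The members' differences in that response ran from -0.44 to 0.46 (log2) at day 3 and from -0.80 (Abcg1) to 0.22 at day 5. Without the set with Y-linked reads 0 and 7 genes were called, and 566 and 887 had an unadjusted p under 0.05, again with 0 members called.

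The intervals show how large a difference could have gone unseen. Nr1h3 at day 3 with RANKL had the difference of -0.50 (log2, 95% interval -0.91 to -0.10, adjusted p = 1), with 35.8, 29.5 and 29.0 CPM in control against 18.2, 24.3 and 24.02 CPM. It was -0.56 (adjusted p = 0.984) without the set with Y-linked reads. Abcg1 at day 5 in M-CSF differed by 0.87 (interval 0.06 to 1.68, adjusted p = 0.778), with libraries 1 and 2 at 22.7 and 18.9 CPM and library 3 at 8.83 CPM, inside the control range of 6.98 to 11.0 CPM. Without the set that library 3 belongs to, the difference was 1.17 (adjusted p = 0.119). Lpl at day 5 with RANKL had groups that did not overlap and a difference of 0.36 (interval -0.03 to 0.74, adjusted p = 1), which was 0.47 (adjusted p = 0.39) without that set. Of all genes 10.3% had groups without overlap in that comparison. Mylip at day 5 in M-CSF did likewise, with 0.32 (interval -0.25 to 0.90, adjusted p = 0.914), or 0.38 (adjusted p = 0.66) without the set, where 16.8% of all genes had groups without overlap. For Abca1 the 4 intervals lay within -0.65 and 0.84, and for Apoe within -0.80 and 1.20. Without the set the differences were -0.01 to 0.29 for Abca1 and 0.23 to 0.75 for Apoe.

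**Figure D4:**
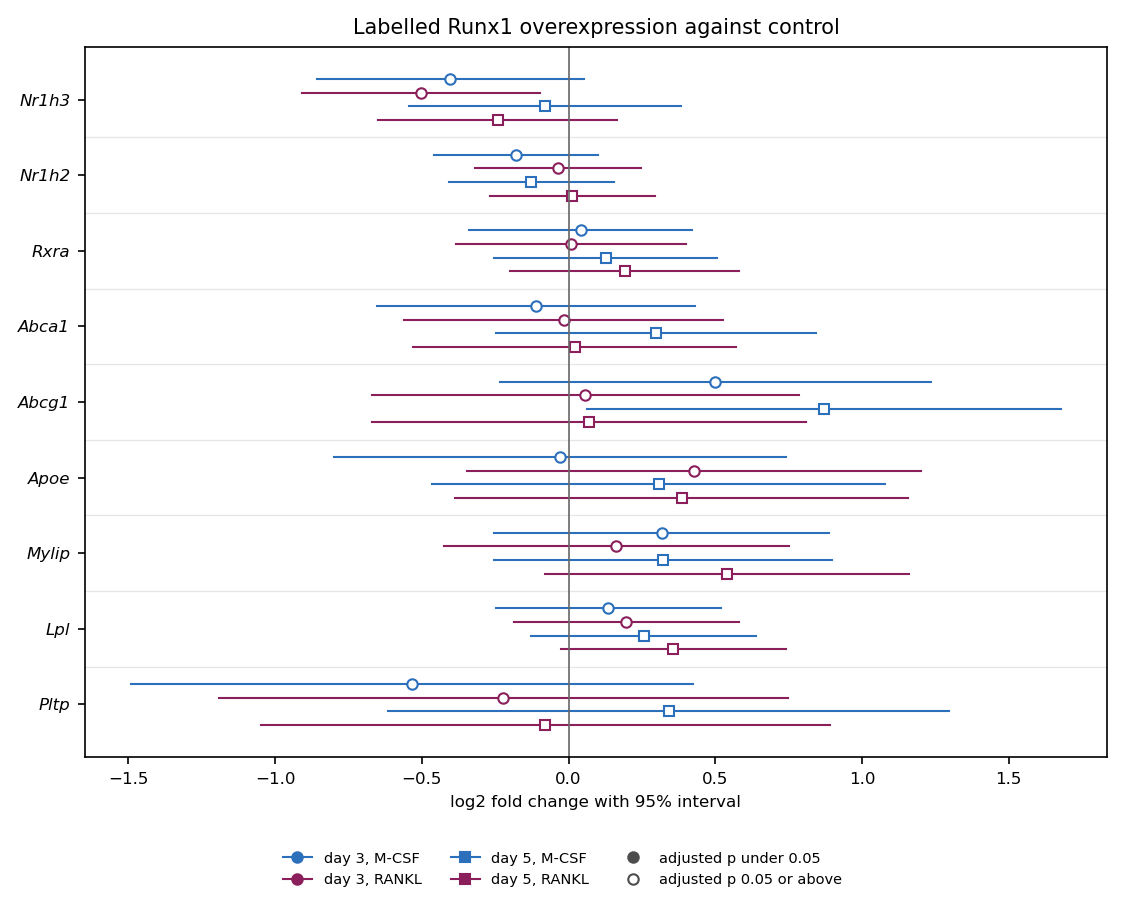
log2 fold change of the label Runx1 overexpression against control with its 95% interval, for 9 genes at each day and medium. All symbols are open (adjusted p of 0.05 or above), and the interval leaves out 0 for Nr1h3 at day 3 with RANKL and for Abcg1 at day 5 in M-CSF alone.

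Genes that work beside the members are given next, to be read against the shares of all genes called with RANKL in control cells, 29.5% higher and 29.7% lower at day 3 and 26.4% and 23.1% at day 5. Of 12 tested RXR partners and LXR coregulators, 3 rose and 5 fell in control cells at day 3 and 1 rose and 7 fell at day 5. The day 3 counts are near those shares. The corepressor Ncor1 fell from 225 ± 4.92 to 180.1 ± 0.575 CPM (SD, n = 3; log2 -0.32, adjusted p = 0.000188) in control cells at day 3. The coactivator Ncoa3 fell from 288 ± 41.4 to 162 ± 12.9 CPM (log2 -0.83, adjusted p = 3.15e-06). The counts in cells labelled Runx1 overexpression were 2 rising and 7 falling, then 1 and 7. Of all genes in those cells, 29.1% rose and 30.1% fell at day 3, and 27.5% and 24.9% at day 5.

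Other known LXR targets gave 0 rises in all 4 RANKL comparisons. Of 10 tested, 7 fell at day 3 and 2 at day 5 in control cells, where 29.7% and 23.1% of all genes fell, so the day 5 count is near that of all genes. In the others 6 and 4 fell, where 30.1% and 24.9% of all genes did. Mertk, a receptor for apoptotic cells that is also on the macrophage marker list, went from 190 ± 48.2 to 22.9 ± 11.0 CPM in control cells at day 3 (log2 -3.05, adjusted p = 2.07e-07), and Arl4c, a small GTPase, from 232 ± 62.1 to 40.9 ± 19.2 CPM (log2 -2.50, adjusted p = 5.75e-07). Scd1, which desaturates fatty acids, went from 33.8 ± 14.9 to 7.32 ± 0.560 CPM at day 3 (log2 -2.20, adjusted p = 9.86e-06), and by day 5 stood at 0.893 ± 0.493 and 0.846 ± 0.254 CPM (adjusted p = 0.936). The median change of these 10 was -1.88 at day 3 and -0.29 at day 5 in control cells. Their RANKL response was called as differing between days for 2 of 10 in control cells, where 14.0% of all genes were. It was called for 1 of 10 in the others, where 15.2% of all genes were.

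Some of the enzymes that set sterol ligand levels fell too. Cyp27a1, a mitochondrial enzyme that makes an oxysterol, went from 43.0 ± 35.5 to 4.47 ± 3.10 CPM in control cells at day 3 (log2 -3.24, adjusted p = 0.000162). Ch25h, another enzyme that makes one, was at 1.48 ± 1.97 and 0.428 ± 0.146 CPM at day 3 (adjusted p = 0.121) and at 9.17 ± 3.74 and 0.651 ± 0.373 CPM at day 5, where it fell (log2 -3.81, adjusted p = 0.00141). Of the 4 tested genes of this list 2 fell at day 3 in either genotype and 3 at day 5. Of all genes, 29.7% and 23.1% fell on those days in control cells, and 30.1% and 24.9% in the others. Sult2b1, which sulphates oxysterols, rose in control cells at day 5 from 0.0865 ± 0.0306 to 0.415 ± 0.252 CPM (adjusted p = 0.011). Its M-CSF mean was below the worth of 3 counts in those libraries, 0.150 to 0.162 CPM. None of the 4 genes rose in cells labelled Runx1 overexpression at day 5, where the highest log2 change was -0.05.

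Of 15 genes for cholesterol uptake, storage and release, 12 fell and 2 rose in control cells at day 3 (29.7% and 29.5% of all genes) and 10 fell and 2 rose at day 5 (23.1% and 26.4%). The scavenger receptor Cd36 went from 1724 ± 119 to 125 ± 11.5 CPM at day 3 (log2 -3.78, adjusted p = 8.58e-15), and Lrp1, which takes up Apoe-bearing particles, from 4389 ± 664 to 894 ± 61.4 CPM (log2 -2.30, adjusted p = 1.43e-09). The lipid droplet protein Plin2 went from 309.7 ± 16.4 to 169 ± 5.05 CPM (log2 -0.87, adjusted p = 6.06e-06), and the cholesteryl ester hydrolases Nceh1 and Lipa fell by 1.11 and 1.70 on the log2 scale. Vldlr, a receptor that Mylip also targets, rose at a low level from 0.720 ± 0.310 to 5.53 ± 1.17 CPM (log2 2.94, adjusted p = 7.58e-06). Of the 3 tested partners of Lpl, the maturation factor Lmf1 rose from 26.5 ± 4.50 to 33.8 ± 3.31 CPM at day 3 (log2 0.35, adjusted p = 0.0149), Sel1l fell from 261 ± 15.3 to 222 ± 9.68 CPM (log2 -0.24, adjusted p = 0.0196), and the inhibitor Angptl4 fell from 1.34 ± 0.257 to 0.628 ± 0.147 CPM (log2 -1.09, adjusted p = 0.0217). In none of these 5 lists was a gene called between genotypes.

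**Figure D5:**
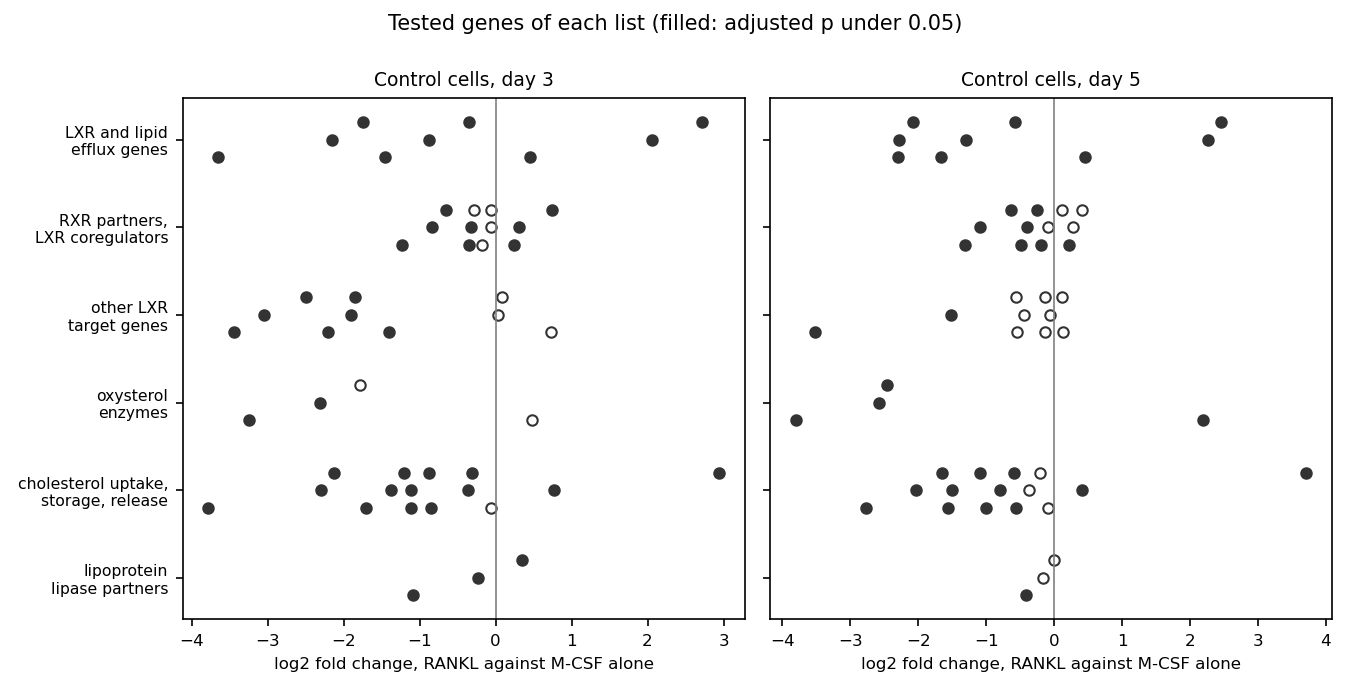
log2 fold change with RANKL in control cells at days 3 and 5 for each tested gene of the 9 LXR and lipid efflux genes and of 5 related lists, filled where the adjusted p was under 0.05. The other LXR targets lie mostly below 0 at day 3 (7 of 10 filled). At day 5 they run from -3.53 to 0.13, with a median of -0.29 (2 of 10 filled).

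The genes whose pattern over the 8 group means was most like a member's were sought among 8660 protein-coding genes with a mean of at least 10 CPM, by Pearson r on log2 CPM. Abca1 was closest to Calcoco1 (r = 0.995), Khnyn (0.993) and Wdfy2 (0.991). Abcg1 was closest to Zfp874a (0.994), Nlrx1 (0.989) and Usp3 (0.987), and Apoe to Panx1 (0.998), Lipa (0.997) and Lilrb4a (0.997). Lipa, the lysosomal acid lipase that frees cholesterol from esters, also belongs to the uptake and storage list. Among the members themselves Abca1 and Abcg1 had r = 0.319 and Rxra and Pltp r = 0.974. With 8 points that share media, days and genotypes, these values are descriptions.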

How the data were processed

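RNA was sequenced in 24 libraries, each made from 250 ng of total RNA per the labels' protocols. The authors deposited whole-number read counts per gene in a single table. STAR, DESeq2 and GRCm39 are listed in the submitters' processing notes without versions, and counting settings, strand included, are not stated there or in the labels. Positions in the table are those of GRCm38: of 54409 identifiers found in the GENCODE M21 annotation, 53499 (98.3%) had the same position. All value columns were matched to a library by title, and 0 libraries were duplicates of another.

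Groups came from the labels. Tests used edgeR 4.0.16 in R 4.3.3 on the deposited counts: filterByExpr by group (15035 genes), TMM scaling, a robust quasi-likelihood fit over all 24 libraries with a coefficient per group, and Benjamini-Hochberg adjustment over all genes tested, with calls under 0.05. Every adjusted p is from this test unless another tool is named. Standard errors were taken from each log2 fold change and F value, with 95% intervals. CPM used TMM-scaled totals and were divided by exon length in kb only to compare genes. The fit was tested on simulated data. The comparisons were RANKL within genotype and day, day within genotype and medium, genotype within day and medium, and differences of the RANKL response between genotypes and between days, 16 in all.

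Alternatives were DESeq2 1.42.0 and its size factors, no filter, fits of only the groups compared, a replicate block, leaving out each library, and leaving out the 4 libraries with Y-linked reads. Library numbers were checked for pairing by correlating deviations from group means: all 3 same-number pairs exceeded 0.1 for RANKL at day 3 in control cells (0.116 to 0.437) and at day 5 in cells labelled Runx1 overexpression (0.224 to 0.433), so the block counts as a pairing there. The members and the lists were chosen with earlier results of these data known. Named genes of other lists were those with the smallest p in the RANKL, day or genotype comparisons, and some of these are not reported here. Promoter windows are from RefSeq (GRCm38.p6).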

Additional observations from a re-analysis of the deposited data

How the results depend on the processing

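No called change of the 9 genes reversed direction under any setting run. The RANKL changes of Nr1h3, Rxra, Abcg1, Apoe and Mylip were called in all 4 comparisons under every alternative, as were those of Abca1, Pltp and Nr1h2 at day 5 in both genotypes. Leaving out 1 library at a time gave 5 to 9 members called for RANKL at day 3 in control cells and 5 to 8 in cells labelled Runx1 overexpression, and 2 to 4 between days in M-CSF in the latter. Over all genes, the same fits called 8069 to 8595, 8081 to 8759 and 1229 to 3127 in that order. The main fit called 8888, 8903 and 2144. The replicate block changed 5 of 144 calls. With it, 2 members differed between days in their RANKL response in control cells (Apoe 1.28, adjusted p = 0.0193, and Mylip -0.84, adjusted p = 0.0487) against 0 without. Of all 15035 genes tested, 2310 were called in that comparison with the block. Only 6 of its 18 same-number pairs exceeded 0.1, so the block does not count as a pairing there. With the block, Apoe between days in M-CSF in control cells was called (0.92, adjusted p = 0.0131). Lpl with RANKL in control cells was not (adjusted p = 0.0612 at day 3 and 0.0717 at day 5). Same-number libraries of 1 genotype had correlations of -0.109 to 0.437 over 36 pairs, 23 of them best with their own number, and those across genotypes -0.221 to 0.626 over 48 pairs. DESeq2 size factors changed 3 of 144 calls, DESeq2's own test 1, no filter 5 and fitting only the groups compared 6. Each was a lost call, and the cause was not tested. Group levels on unscaled totals differed by at most 1.05-fold. At these depths Apoc2 did not pass the count filter and was not tested.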
